A study of Danio rerio with 2 samples.

Results

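The proteasome subunit genes are the 53 genes, of 33733 listed, whose symbol begins with psm, a letter from a to g and a digit. Of these, 20 encode core particle subunits (psma, psmb), 23 encode subunits or chaperones of the regulatory cap (psmc, psmd), 5 encode activators (psme) and 3 encode assembly factors (psmg). Another is psmf1, the proteasome inhibitor gene, and the last is psmc3ip, which the symbol rule takes in although its product is a meiotic recombination factor and no proteasome subunit. RNA sequencing was done on whole zebrafish larvae of strain AB/TL at 5 days post fertilization, with 1 library from 20 pooled lri35-/- mutants and 1 library from 20 pooled wild-type siblings. The allele is written lri35 in the series title and lir35 in the sample label, and the labels do not name the affected gene. Both pools were clutchmates of the same age and background, and no treatment is listed for either. With 1 library per genotype there is no replicate error, so no test, standard deviation or p-value was computed, and each difference below compares these 2 libraries and not the genotypes.

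The proteasome degrades proteins that carry ubiquitin chains. Its core particle is a barrel of stacked alpha and beta rings, with the catalytic sites of the beta subunits facing the inside, and the regulatory cap recognises the ubiquitin, removes it, and uses a ring of ATPases to unfold and feed the substrate. The particle is made in every cell, it needs its subunits in fixed proportions, and vertebrates can swap in other catalytic subunits in immune and thymic cells.

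Levels are given as FPKM (fragments scaled to gene length and to the mapped total), read from the deposited table, where the unit is inferred and not stated. The difference of a gene is log2((mutant FPKM + 1)/(wild-type FPKM + 1)), so a positive value is higher in the mutant library, while a fold printed for a gene is its mutant FPKM over its wild-type FPKM with nothing added. Values summed to 874244 FPKM in the mutant library and 875340 FPKM in the wild-type library, and low values put the mutant library at about 1.3 times the depth of the other, while absolute depth is unknown. The median difference over the 19112 symbols that averaged 1 FPKM or more was -0.01. Summed levels of the tissue markers checked ran from 43.3 FPKM for immune cells to 8201 FPKM for fast muscle in the mutant library and from 50.7 to 8136 FPKM in wild type, leaving aside the thymus and T cell markers, none of which averaged 1 FPKM. The neuron marker gap43 was listed at 0 in both libraries. Pancreatic acinar markers summed to 2966 FPKM in the mutant and 7048 FPKM in wild type, with 4 of 4 at least 2-fold lower. Red cell markers summed to 762 and 1331 FPKM, with 2 of 4 at least 2-fold lower. Of all symbols, 3.12% were 2-fold or more lower. Epidermal markers summed to 8113 and 6410 FPKM, with 3 of 3 above 0, where 49.1% of all symbols were. The measured immune, lens, rod and cone, and neuron markers all lay below 0, with medians of -0.39, -0.24, -0.17 and -0.12. Of all 19112 symbols, 9719 lay below 0. The immune marker mpx, at 0.630 FPKM in the mutant and 1.74 in wild type, averaged 1 FPKM or more only through its wild-type value. Its place below 0 therefore follows in part from that minimum. Fast muscle, liver and proliferating cell markers had both signs. The part of the marked cell types in the proteasome values was not tested. In RNA from whole larvae, fewer cells of a type and less RNA per cell cannot be told apart.

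Proteasome genes were slightly higher in the mutant library as a group. Summed over the 53 genes they took 0.312% of all FPKM in the mutant library and 0.283% in the wild-type library, or 2731 and 2476 FPKM. A total of 48 genes averaged 1 FPKM or more, and 40 of these lay above 0, which is 83.3% against 49.1% of all symbols at that level. The median difference of the 48 was 0.14, a 1.11-fold higher level. Few of the single differences were sizeable. In the mutant library 7 genes were 25% or more above wild type on the scale with 1 FPKM added, which is 14.6% against 18.6% of all symbols. Another 3 lay 20% or more below wild type, the same fold in the other direction, which is 6.25% against 20.4%. None of the 48 was 2-fold or more above wild type, where 2.87% of all symbols were, and 2 were 2-fold or more below it, where 3.12% were. The shares past these limits were near or under those of all symbols, while the share above 0 was larger. The 7 genes and the 40 include psmb11, at 1.90 FPKM in the mutant and 0.607 in wild type, which averaged 1 FPKM or more only through its mutant value. They also include psmc3ip, which is no subunit. Without psmc3ip, 39 of 47 lay above 0 (83.0%) and 6 were 25% or more above wild type (12.8%).

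Well expressed genes showed the same pattern. Of the 41 proteasome genes averaging 10 FPKM or more, 36 lay above 0, 87.8% against 52.7% of the 7290 symbols at that level. In this range 5 were 25% or more above wild type, 12.2% against 13.7%, and 1 was 20% or more below it, 2.44% against 12.6%. Their median difference was 0.15, against 0.02 over all symbols. The lower and upper quartiles of the 41 were 0.03 and 0.23, against -0.17 and 0.19 over all symbols, so the distance between quartiles was 0.20 for the proteasome genes and 0.36 for all symbols. The sets were not matched for level. The median level of the 41 was 65.1 FPKM in the mutant and 54.4 in wild type, against 22.2 and 22.1 over all symbols. Over all symbols averaging 1 FPKM or more, the distance between quartiles was 0.49. The part of level in the narrower spread and in the shares past the limits was not tested.

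**Figure D1:**
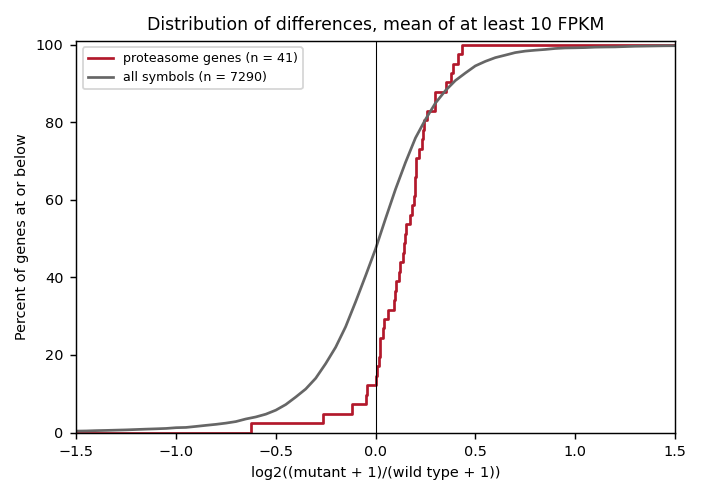
Share of genes (percent, vertical axis) at or below each log2 difference between the lri35 mutant and the wild-type library (horizontal axis), for the 41 proteasome genes and all 7290 symbols averaging 10 FPKM or more. The proteasome curve is steeper and lies to the right of the other below about 0.25. The curves run close together from there to about 0.35, and above that the proteasome curve lies to the left.

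Of the 53 genes, 47 were tested in the authors' deposited table and 0 were called, where 0.124% of all tested rows were. The authors' deposited table gives 2 of them a p under 0.05 before correction, psme4b at 0.04635 and psma6l at 0.04935, both lower in the mutant library, where 1.7% of all tested rows have such a p and are lower. None of the genes higher in the mutant library has such a p, where 1.24% of all tested rows do, and the smallest p among them in the authors' deposited table is 0.143, for psmb6. All 47 stand at a q of 0.994 in the authors' deposited table, and those p-values compare 1 library with 1 library.

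The alpha ring forms the ends of the core barrel and gates the entry of substrates. Of its 9 genes, 7 lay above 0, which is 77.8% against 49.1% of all symbols, and the median difference was 0.09. The highest level was that of psma5, at 133 FPKM in the mutant library and 116 FPKM in the wild-type library. The largest higher values were those of psma2, at 69.2 FPKM in the mutant and 58.8 in wild type (1.18-fold), and of psma5 (1.15-fold). Other genes of the ring were close to equality. The psma3 gene stood at 113.3 FPKM in the mutant and 112.8 in wild type, with psma6b at 65.08 and 65.04, and psma1 at 87.0 and 89.7. The remaining abundant genes psma4, psma6a and psma8 stood at 78.0, 57.8 and 102 FPKM in the mutant and at 70.6, 52.3 and 95.7 FPKM in wild type. The psma8 row carries psma7 among its older RefSeq names, and no other row of the table bears that name.

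The exception in the ring was psma6l, a further copy of the psma6 genes on chromosome 15 from 46841601 to 46850428 (Zv9). It stood at 1.16 FPKM in the mutant library and 4.82 FPKM in the wild-type library, 4.16-fold lower in the mutant and the lowest difference of all proteasome genes at -1.43. Both values are low for this gene family, and the 3 psma6 genes together came to 124 FPKM in the mutant and 122 FPKM in wild type. The share of psma6l in that sum was 0.933% in the mutant and 3.94% in wild type, while psma6a held 46.6% and 42.8%. How alike the sequences of these copies are was not tested, and how any reads shared between copies were assigned is unknown here.

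The beta ring holds the catalytic sites. All 7 constitutive beta genes were above 0 in difference, where 52.7% of all symbols averaging 10 FPKM or more were. Of the catalytic subunits, psmb6, which cleaves after acidic residues, stood at 73.8 FPKM in the mutant library and 54.4 FPKM in the wild-type library, 1.35-fold higher, and had the largest difference of the well expressed genes at 0.43. The chymotrypsin-like subunit gene psmb5 stood at 103 FPKM in the mutant and 89.5 in wild type (1.15-fold). The trypsin-like subunit gene psmb7 was close to equal, at 131 and 128 FPKM (1.02-fold). In the wild-type library psmb6 had the lowest level of the ring, and its mutant value brought it nearer to the others, so that the highest level of the ring was 1.87 times the lowest in the mutant and 2.35 times in wild type.

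Of the beta subunits without a catalytic site, psmb2 stood at 107 FPKM in the mutant library and 82.0 FPKM in the wild-type library, 1.30-fold higher. The most abundant gene of the ring in the mutant library was psmb3, at 138 FPKM against 116 in wild type (1.18-fold). The psmb1 gene was 1.15-fold higher in the mutant, at 109.8 and 95.1 FPKM. As with psmb7, psmb4 was near equal, at 107.5 FPKM in the mutant and 105.9 in wild type.

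The alternative beta subunits that the symbol rule takes in were barely detected. The row named PSMB10, outside the rule and described below, stood at 6.29 FPKM in the mutant and 2.66 in wild type. In mammals, psmb8 and psmb9 encode catalytic subunits that interferon induces and that replace the constitutive ones in immune cells. All 4 such rows of the rule share a region on chromosome 19 from 7728373 to 7767121 (Zv9), together with the peptide transporter gene abcb3l1. There psmb9a stood at 0.764 FPKM in the mutant and 0.481 in wild type, psmb8 at 0.701 FPKM in the mutant and listed at 0 in wild type, and psmb10, now named psmb13a, was listed at 0 in both. The psmb11 row, now named psmb12, stood at 1.90 FPKM in the mutant and 0.607 in wild type. It passed the minimum mean of 1 FPKM only through its mutant value, so its difference of 0.85 follows in part from that minimum, and values this low may rest on few fragments. The markers of thymus and T cells rag1, rag2, foxn1 and lck all had a mean under 1 FPKM.

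**Figure D2:**
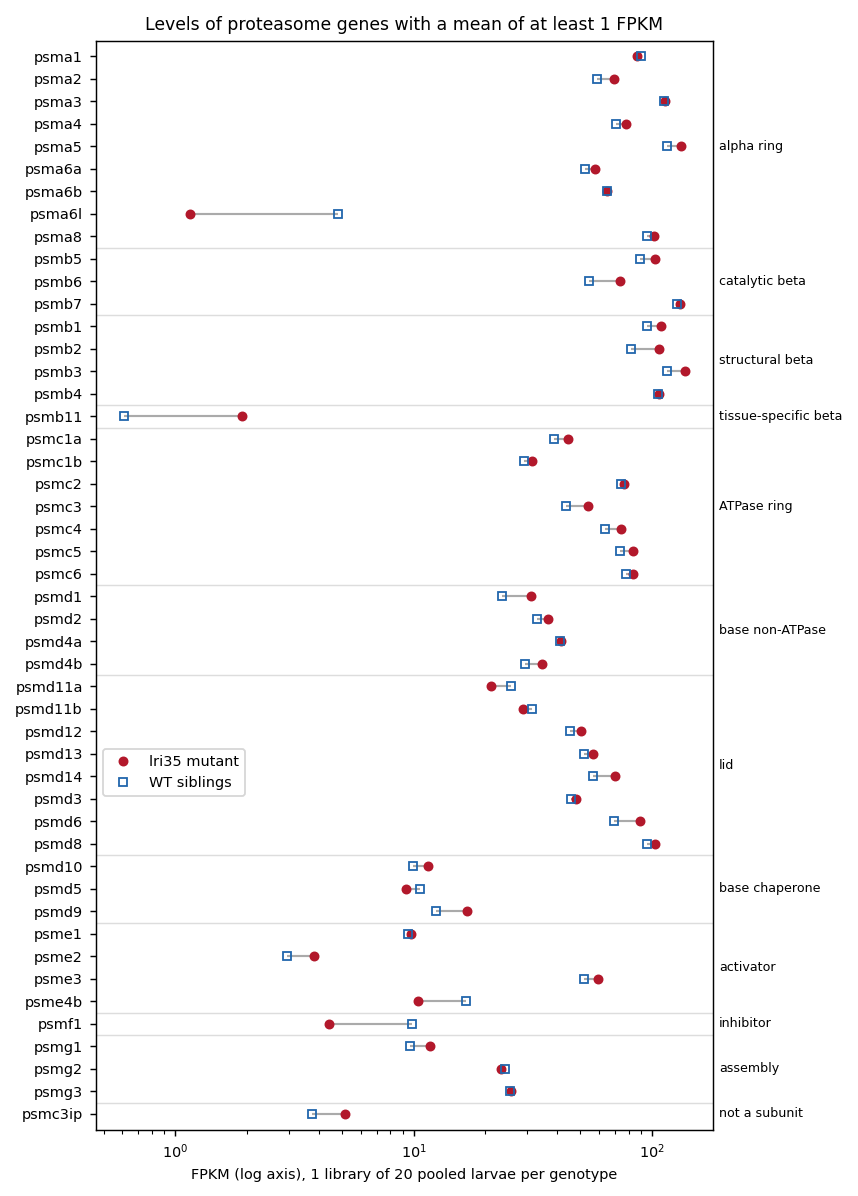
FPKM in the lri35 mutant library (filled circles) and the wild-type library (open squares) on a log axis, for the 48 genes averaging 1 FPKM or more, grouped by role. Most circles lie just to the right of their square. The circle lies to the left for 8 genes, farthest for psma6l, psmf1 and psme4b. The psmb11 pair rests on values of 1.90 and 0.607 FPKM.

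The base of the cap is built on a ring of ATPases that unfold the substrate. All 7 ATPase genes were above 0, where 52.7% of all symbols averaging 10 FPKM or more were. Their differences ran from 0.04 to 0.30, with a median of 0.17. None was 25% or more above wild type, where 13.7% of those symbols were. The largest was that of psmc3, at 53.9 FPKM in the mutant library and 43.7 FPKM in the wild-type library (1.23-fold). The psmc4 gene stood at 74.5 FPKM in the mutant and 63.9 in wild type (1.16-fold), and psmc5 at 83.2 and 73.6 (1.13-fold). The smallest differences were those of psmc2, at 76.7 and 74.5 FPKM, and of psmc6, the most abundant, at 83.7 and 78.2 FPKM. The copies psmc1a and psmc1b, which fill the same position, stood at 44.4 and 31.3 FPKM in the mutant and at 39.0 and 29.1 FPKM in wild type, and psmc1a held 58.6% of their sum in the mutant and 57.3% in wild type.

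The other base subunit genes that the symbol rule takes in were higher as well. Outside the rule, adrm1, a ubiquitin receptor gene of the cap described below, was lower, at 40.8 FPKM in the mutant and 49.5 in wild type. The scaffold subunit gene psmd1 stood at 31.0 FPKM in the mutant library and 23.5 FPKM in the wild-type library, 1.32-fold higher, and its partner psmd2 at 36.8 and 33.1 FPKM (1.11-fold). In both libraries psmd1 had the lowest level of the cap's constitutive positions that were above 0, once copies were summed. Another ubiquitin receptor is encoded by psmd4a, at 41.7 FPKM in the mutant and 41.1 in wild type, and psmd4b, at 34.6 and 29.2 FPKM (1.18-fold).

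The lid of the cap carries the deubiquitinase that removes the chain before degradation. That enzyme gene, psmd14, stood at 70.1 FPKM in the mutant library and 56.8 FPKM in the wild-type library (1.23-fold). The largest difference of the lid was that of psmd6, a structural subunit, at 88.9 FPKM in the mutant and 69.5 in wild type (1.28-fold). The most abundant, psmd8, stood at 103 FPKM in the mutant and 95.4 in wild type, while psmd12, psmd13 and psmd3 stood at 50.4, 56.6 and 47.9 FPKM in the mutant and at 45.3, 51.9 and 45.8 FPKM in wild type. The exceptions were both copies of one lid subunit. Of these psmd11a stood at 21.2 FPKM in the mutant and 25.6 in wild type, psmd11b at 28.9 and 31.5, and their sum at 50.1 and 57.1 FPKM (0.877-fold). The lid gene psmd7, on an unplaced scaffold of Zv9, was listed at 0 in both libraries. Its product is a constitutive subunit of the lid, and whether this value is a failed estimate cannot be told from the table.

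Chaperones that build the base, known from yeast and mammals, had low levels. The largest difference among them was that of psmd9, on chromosome 7 from 75462952 to 75470793 (Zv9), at 16.8 FPKM in the mutant library and 12.4 FPKM in the wild-type library (1.36-fold). The gankyrin gene psmd10 stood at 11.5 FPKM in the mutant and 9.92 in wild type (1.16-fold), while psmd5 stood at 9.33 and 10.6 (0.880-fold). The psmd9 row ends 1.63 Mb before the last row of chromosome 7 in the table.

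**Figure D3:**
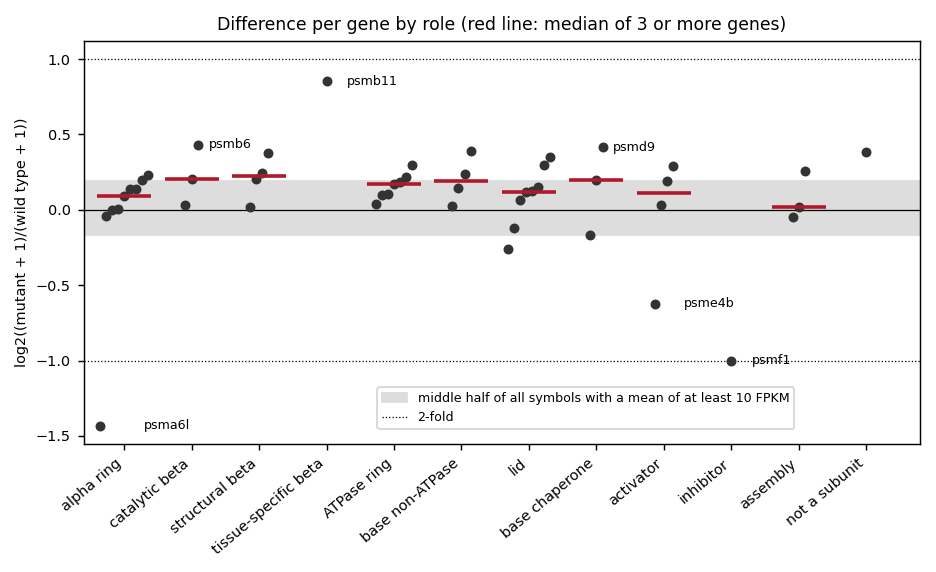
Log2 difference between the lri35 mutant and the wild-type library for each of the 48 genes by role, with the median of roles of 3 or more genes as a red line and the range between the quartiles of all symbols averaging 10 FPKM or more (-0.17 to 0.19) in grey. The beta and ATPase points all lie above 0, and psma6l and psmf1 lie at or below the 2-fold line.

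Activators bind the ends of the core particle in place of the cap. Their differences had both signs. The gene psme3, whose product is a nuclear activator, was the most abundant, at 59.3 FPKM in the mutant library and 51.8 FPKM in the wild-type library (1.15-fold). The subunit genes psme1 and psme2, which in mammals are induced by interferon, stood at 9.76 and 3.81 FPKM in the mutant and at 9.50 and 2.93 FPKM in wild type. The psme2 row shares its region with LSM5, a gene at 71.3 FPKM in the mutant and 67.0 in wild type. In the other direction psme4b, which encodes the large single-chain activator, stood at 10.5 FPKM in the mutant and 16.7 in wild type, 1.59-fold lower in the mutant. Its copy psme4a averaged under 1 FPKM, at 0.857 FPKM in the mutant and 0.815 in wild type.

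The proteasome inhibitor gene psmf1, on chromosome 6 from 51747114 to 51761914 (Zv9), was the other gene 2-fold or more below wild type. It stood at 4.43 FPKM in the mutant library and 9.88 FPKM in the wild-type library, a 2.23-fold lower level in the mutant. On the scale with 1 FPKM added its difference was -1.001, so it lay just past the 2-fold limit. The authors' deposited table gives psmf1 a p of 0.05955. With totals rescaled without the 50 most abundant genes, or with 5 FPKM added, psmf1 lay inside 2-fold at -0.97 and -0.66.

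Among the assembly factors of the alpha ring, psmg1 stood at 11.8 FPKM in the mutant library and 9.67 FPKM in the wild-type library (1.22-fold). Its partner psmg2 was near equal, at 23.3 FPKM in the mutant and 24.2 in wild type. The psmg3 gene was near equal too, at 25.7 FPKM in the mutant and 25.4 in wild type. Over these 3 genes the median difference was 0.02, and it became 0.14 when the row named PSMG4, at 24.8 FPKM in the mutant and 19.7 in wild type (1.26-fold), was counted with them.

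Summing the copies that the symbol rule takes in gave 30 positions of the core particle and cap above 0 FPKM. Of these, 28 were higher in the mutant library, where 52.7% of all symbols averaging 10 FPKM or more were. The 2 lower ones were those of psma1 and of the psmd11 copies. The cap genes adrm1 and shfm1, outside the rule and described below, are not among the 30 positions. Of these adrm1 was lower, at 40.8 FPKM in the mutant and 49.5 in wild type, and shfm1 was higher, at 65.6 and 50.3. Core positions had higher median levels than cap positions in both libraries. The median over the alpha positions was 102 FPKM in the mutant and 95.7 FPKM in wild type. Over the beta positions it was 107.5 and 95.1 FPKM, and over the cap positions 72.3 and 60.5 FPKM. Single positions overlapped in level, with psmd8 of the cap at 103 and 95.4 FPKM and psmb6 of the core at 73.8 and 54.4. With the second psma2 and psmd2 rows described below added, the alpha median was 113.3 FPKM in the mutant and 112.8 in wild type. The cap median was then 73.7 and 63.9 FPKM, and the counts of higher positions were unchanged. The spread over positions was smaller within the rings than in the cap. In the cap the highest level was 3.34 times the lowest in the mutant and 4.07 times in wild type.

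**Figure D4:**
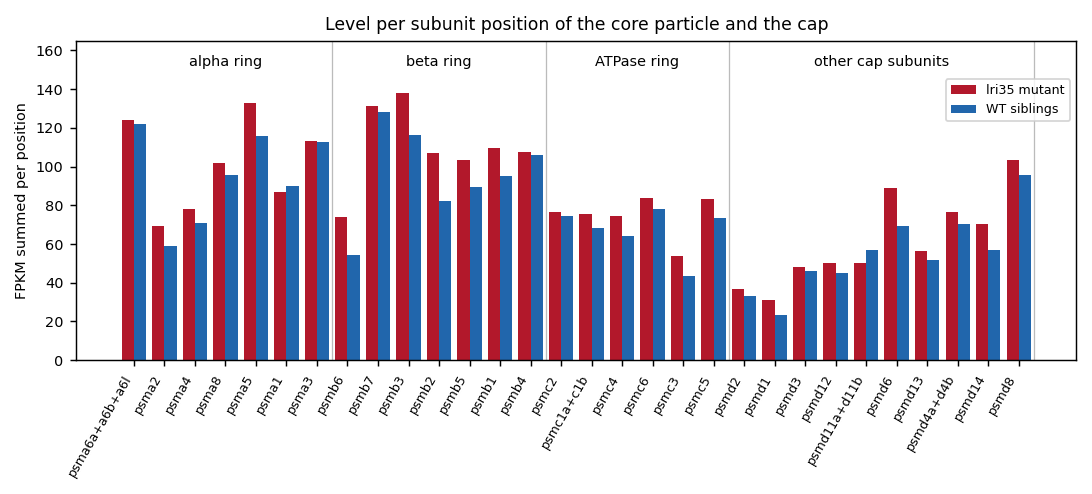
FPKM per subunit position, summed over the copies named under each bar pair, in the lri35 mutant library (red, left) and the wild-type library (blue, right). The mutant bar is the taller in 28 of 30 pairs, and the exceptions are psma1 and psmd11a with psmd11b. The second psma2 and psmd2 rows and the cap genes adrm1 and shfm1, named outside the rule, are left out of the bars.

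Some proteasome genes stand in the table under names outside the rule, and they were looked up after the values of the others had been seen. The second psma2 copy, listed as si:rp71-45k5.4, stood at 97.5 FPKM in the mutant library and 80.2 FPKM in the wild-type library (1.21-fold), above the psma2 row itself. A second row of psmd2, PSMD2 (1 of 2), stood at 36.1 FPKM in the mutant and 30.8 in wild type (1.17-fold), and the pair of rows lies close together on chromosome 15. The row named PSMB10 on chromosome 4, which RefSeq names as an inducible catalytic subunit, stood at 6.29 FPKM in the mutant and 2.66 in wild type (2.36-fold), with a p of 0.1297 in the authors' deposited table. The rows PSMB11 (1 of 2) and PSME4 (3 of 4) were listed at 0 in both. The psmc3ip row stood at 5.17 FPKM in the mutant and 3.73 in wild type.

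The genes lie apart in the genome, on 21 chromosomes. Of the 53, 9 lie on chromosome 19 and 1 on an unplaced scaffold. The 4 alternative beta rows aside, members do not share regions, though 12 of the 53 rows, those 4 included, lie in a region listed also for another row. For psmc3, psmc1a, psmb5, psmd1 and psme3 the other row was at most 2.17 FPKM in either library.

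Genes of proteins that work with the proteasome had differences of both signs. Of 19 measured partner genes, 11 lay above 0, which is 57.9% against 49.1% of all symbols, and the median difference was 0.08. In the mutant library 5 were 25% or more above wild type, 26.3% against 18.6%, and 1 was 20% or more below it, 5.26% against 20.4%. The most abundant was zfand5a, at 125 FPKM in the mutant library and 112 FPKM in the wild-type library. The core maturation factor gene pomp stood at 121 FPKM in the mutant and 91.0 in wild type (1.33-fold), and shfm1, a small subunit of the cap, at 65.6 and 50.3 (1.30-fold). The ubiquitin hydrolase gene uchl3 was the highest of the list at 51.9 and 37.3 FPKM (1.39-fold). Of the cap deubiquitinase genes, usp14 stood at 23.0 FPKM in the mutant and 17.9 in wild type (1.29-fold), and uchl5 was 1.13-fold higher in the mutant. In contrast adrm1, a ubiquitin receptor of the cap, stood at 40.8 FPKM in the mutant and 49.5 in wild type, the shuttle factor gene rad23b at 50.7 and 62.4, and the ligase gene ubr4 at 5.75 and 9.93.

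The ubiquitin genes and activating enzymes had a median difference of 0.07 over 8 measured genes. Of these, 6 lay above 0, 75% against 49.1% of all symbols. None was past the limits of 25% above or 20% below, where 18.6% and 20.4% of all symbols were. The polyubiquitin gene ubb stood at 310.0 FPKM in the mutant library and 268 FPKM in the wild-type library (1.16-fold), and ubc at 415 and 421. The ubiquitin activating enzyme gene uba1 was 1.23-fold higher, at 73.3 and 59.5 FPKM.

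Genes upstream of the proteasome in degradation at the endoplasmic reticulum lay mostly below 0. Of 15 measured genes of that list 3 lay above 0, which is 20.0% against 49.1% of all symbols. Another 3 were 20% or more below wild type, 20.0% against 20.4%, and none was 25% or more above it, against 18.6%. The median was -0.22. The segregase gene vcp was the most abundant and near equal, at 110.6 FPKM in the mutant library and 113.7 FPKM in the wild-type library. Its cofactor gene ufd1l stood at 33.4 and 41.6 FPKM, the ligase gene syvn1 at 12.8 and 17.3, and the conjugating enzyme gene ube2j2 at 3.75 and 9.60. The highest genes of the list were edem1, at 27.2 FPKM in the mutant and 22.8 in wild type, and derl3, at 8.95 and 7.83 FPKM.

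Genes tied in mammals to the control of proteasome genes had a median of -0.02 over 13 measured genes. Of these, 6 lay above 0, 46.2% against 49.1% of all symbols. Not all of them drive proteasome genes: the list also holds keap1a, keap1b, ngly1, ddi2 and vcp. Of these, ddi2 was also counted among the partner genes, and vcp among the genes of degradation at the endoplasmic reticulum. In each direction 1 was past the limit, 7.69% against 18.6% of all symbols above wild type and 20.4% below it. The transcription factor nfe2l1 induces proteasome genes in mammals when the proteasome is inhibited. Its zebrafish genes nfe2l1a and nfe2l1b stood at 16.1 and 4.30 FPKM in the mutant library and at 21.3 and 5.29 FPKM in the wild-type library. Its relative nfe2l3 stood at 25.3 FPKM in the mutant and 19.4 in wild type (1.30-fold).

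Other large cytosolic complexes were set beside the proteasome. The COP9 signalosome, whose subunits are related to those of the lid, had a median of 0.31 over 7 genes. Of these, 6 lay above 0, 85.7% against 49.1% of all symbols. A total of 3 were 25% or more above wild type, 42.9% against 18.6%. Its highest was cops7a, at 41.3 FPKM in the mutant library and 31.5 FPKM in the wild-type library, and its one gene below 0 was cops8, at 34.2 and 38.0 FPKM. The translation factor eIF3, which also shares subunit folds with the lid, had a median of -0.01 over 16 genes. Of the eIF3 genes 7 lay above 0, 43.8% against 49.1%. The CCT chaperonin had a median of 0.05 over 8 genes, with 7 above 0, 87.5% against 49.1%. Its highest was cct5, at 201 and 168 FPKM. The COP9 and CCT genes all averaged 10 FPKM or more. At that level 52.7% of all symbols lay above 0 and 13.7% were 25% or more above wild type. Each of these medians describes 1 pair of libraries, and the differences between the complexes were not tested.

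**Figure D5:**
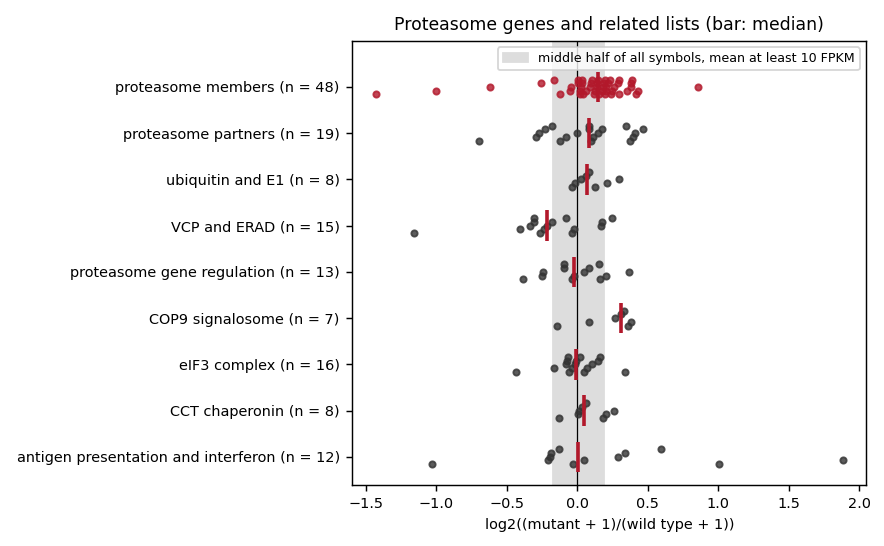
Log2 difference between the lri35 mutant and the wild-type library for each measured gene (points) of the proteasome and 8 related lists, with the list median as a bar and the range between the quartiles of all symbols averaging 10 FPKM or more in grey. The medians run from -0.22 for degradation at the endoplasmic reticulum to 0.31 for the COP9 signalosome, with the proteasome at 0.14.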

How the data were processed

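The authors deposited 1 table for the series, with a row per Ensembl gene ID, a region on Zv9, and a value per library, read here as FPKM from the layout of the table; no label states the unit. CASAVA, Bowtie and Zv9 are named in the submitters' processing notes, without roles. Its p-values and q-values are the authors' and were taken over as deposited. Library names in each row end in WT and MT and were matched to the labels on that basis. Rows sharing a symbol were summed (29358 symbols), 1 FPKM was added to each value, and symbols averaging 1 FPKM or more were kept. Genes past 2-fold, or past 25% above or 20% below wild type, on that scale were counted, beside the same over all symbols. Relative depth came from the mode of the ratio in 350 rows that averaged 0.3 FPKM or less and were at 0 in neither library. Without counts, no counting interval can be given. Python 3.11.15, pandas 2.3.3 and numpy 2.4.6 were used, and the procedure was tested on simulated data. Every gene of the symbol rule could be named; of each related list, mainly the 2 highest, the 2 lowest and the most abundant were chosen, and others were chosen after their values were seen. The values of 1 gene so chosen are not reported here. Members, lists and limits were chosen with earlier results of these data known. Sequences are not shown here, and current names came from a gene name table holding 47 of the 53 IDs and from RefSeq GRCz12tu, used for names only.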

Additional observations from a re-analysis of the deposited data

How the results depend on the processing

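The overall median of 0.14 ranged from 0.13 to 0.18. The count above 0 was 40 of 48, and it ran from 36 of 41 to 43 of 51 as the set changed. Rescaling by the median ratio gave 38 of 48. These ranges cover other pseudocounts (0.1 and 5 FPKM), filters, scalings, row merging and matching by current symbol. They also cover 3 choices added after the data were seen (matching without regard to case, leaving out psmc3ip, and a minimum mean of 10 FPKM). The number of genes at least 2-fold higher was 0 and became 1 with a pseudocount of 0.1 (psmb11). The number at least 2-fold lower was 2 and became 0 with a pseudocount of 5 or a minimum mean of 10 FPKM, and 1 with a minimum mean of 5 FPKM or totals without the 50 most abundant genes. With a minimum mean of 10 FPKM the number 20% or more below wild type was 1, against 3, and the activator median was -0.21, against 0.11, because 2 genes were left. The assembly median became 0.14, against 0.02, without regard to case. Rescaling moved the median of all symbols to 0.02 at most. No paired analysis was possible because each genotype has 1 library. Depth is unknown in absolute terms, so how few fragments lie behind values near 1 FPKM cannot be given.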

Other observations

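Antigen presentation and interferon genes are in mammals induced together with the alternative beta subunits. Their median difference was 0.01 over 12 measured genes of 25 listed. Of the 12, 6 lay above 0 and 6 below, which is 50% above 0 against 49.1% of all symbols. The highest were isg15 and b2m. The isg15 gene stood at 2.69 FPKM in the mutant library and was listed at 0 in the wild-type library. It passed the minimum mean of 1 FPKM only through its mutant value. Its rank and its place among the 6 above 0 therefore follow in part from that minimum. The b2m gene stood at 10.6 FPKM in the mutant and 4.76 in wild type (2.22-fold). The most abundant gene of the list, b2ml, stood at 117 FPKM in the mutant and 95.6 in wild type. The lowest were mhc1zca, at 0.939 FPKM in the mutant and 2.96 in wild type, and irf9, at 7.28 and 8.58. Here mhc1zca passed the minimum only through its wild-type value, so its rank and its place among the 6 below 0 carry the same limit. The peptide transporter gene tap1 stood at 0.617 FPKM in the mutant and 1.03 in wild type. Of the 25 listed genes, 6 were at 0 in both libraries, among them both type II interferon genes. Of all 29358 symbols, 6334 were at 0 in both, a similar share.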
